A study of Mus musculus with 14 samples.

Results

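Regulators of G protein signalling (RGS) were followed in mouse blood through 9 genes, Rgs1, Rgs2, Rgs3, Rgs6, Rgs10, Rgs14, Rgs16, Rgs18 and Rgs19. Their probes were found by matching the identifier of every non-control probe to these symbols, which gave 15 of 55681 probes, for 9 of the 20022 genes that could be named on the array. The genes were chosen from measured values of the same SS against SI contrast, so that contrast is given for them as a description with no test. Of the 15 probes, 12 passed the filter on low values (a signal well above background on 6 or more of the 14 arrays) and represent 7 of the 9 genes. On all 14 arrays 9 probes were above background, and Rgs1, Rgs16 and the dimmer Rgs6 probe did not pass the filter. A probe could pass through the group in which it was bright, so the 12 are not all members.

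RGS proteins speed the hydrolysis of GTP by G alpha subunits, which ends the signal of a G protein-coupled receptor. In blood, Rgs10 and Rgs18 are known as the RGS proteins of platelets, where they restrain activation through receptors for thrombin and ADP. Rgs1, Rgs2 and Rgs16 are known in leukocytes, where RGS proteins shape the response to chemokines.

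Transcripts were measured on 14 one-colour arrays, 1 array per mouse by the labels. The 8 SS mice were exposed to hostile social surroundings in postnatal week 3, and the 6 SI mice had been socially isolated, as juveniles per the design text and in that same week per the growth protocol. Every mouse received cocaine at 5 mg/kg, below the threshold for place preference, in place conditioning, followed by extinction and withdrawal, with blood taken 24 hours later. Of the labelled males 4 were SS and 4 were SI, and of the labelled females 4 were SS and 2 were SI. Among the SS labelled males 1 array is labelled mouse 1 and another mouse 01b, and the labels do not say how these 2 relate. There was no mouse without stress or without cocaine, and the labels name no strain, genotype or age. The cells are labelled as mononuclear cells, but the protocol names only lysis of red cells. Of the platelet markers 18 of 18 were well above background widely enough to be tested, as were 12 of 14 neutrophil markers (not Ly6g and Mpo) and 6 of 9 erythroid markers (not Ahsp, Epb42 and Klf1). Of those left out, Ly6g and Ahsp had no probe that could be named on the array. In such bulk samples, fewer cells of a type and less RNA per cell cannot be told apart.

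Labelled males were all on 1 slide and labelled females all on the other, so slide and sex label cannot be told apart. The Y-linked genes Eif2s3y and Ddx3y were above background on 6 of 6 labelled female arrays and on 0 of 8 labelled male arrays, which goes against the sex labels, and the groups keep the names of the labels here. SI mice lay in array columns 1 and 2 and SS mice in columns 3 and 4, so stress group and array column cannot be told apart. The array of SI labelled male 4 stood apart, with a correlation of 0.833 with mouse 7 of its own group. Array brightness is the median, over probes that passed the filter, of the unscaled log2 signal minus the probe's mean over arrays. It was -0.81 for SI labelled male 4, against 0.64 to 1.06 in the other SI labelled males. For SI labelled females 28 and 27 it was -0.85 and -0.28. Results that rest on the array of SI labelled male 4 are given with and without that array. Between 34.8% and 47.7% of spots were well above background.

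Promoter sequences are shown for the genes whose levels turned out higher in SS (Rgs6, Rgs10) and for members of the other set (Rgs2, Rgs19), to set the regions upstream of the 2 sets side by side. They are the 250 bases before the annotated start in RefSeq on build GRCm38.p6, and the table held 9 entries for 6 of the 9 genes (Rgs2, Rgs3, Rgs6, Rgs10, Rgs16 and Rgs19). Rgs1, Rgs14 and Rgs18 had no entry. Capitals mark GATAA on either strand, the core bound by GATA factors, which reads TTATC on the opposite strand. The Rgs6 region is chr12:82617249-82617498 on the plus strand, the Rgs10 region chr7:128418173-128418422, the Rgs2 region chr1:144004150-144004399 and the Rgs19 region chr2:181693978-181694227, the last 3 on the minus strand.
Rgs6: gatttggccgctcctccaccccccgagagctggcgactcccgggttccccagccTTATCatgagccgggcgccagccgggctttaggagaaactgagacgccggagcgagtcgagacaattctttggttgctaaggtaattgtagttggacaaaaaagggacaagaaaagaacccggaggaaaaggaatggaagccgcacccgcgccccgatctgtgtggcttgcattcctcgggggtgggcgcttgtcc
Rgs10: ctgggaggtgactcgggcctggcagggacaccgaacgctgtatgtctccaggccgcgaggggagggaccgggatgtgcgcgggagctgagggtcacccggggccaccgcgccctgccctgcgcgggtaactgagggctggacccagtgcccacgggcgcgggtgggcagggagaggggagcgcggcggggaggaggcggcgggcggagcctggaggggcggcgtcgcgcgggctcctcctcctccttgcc
Rgs2: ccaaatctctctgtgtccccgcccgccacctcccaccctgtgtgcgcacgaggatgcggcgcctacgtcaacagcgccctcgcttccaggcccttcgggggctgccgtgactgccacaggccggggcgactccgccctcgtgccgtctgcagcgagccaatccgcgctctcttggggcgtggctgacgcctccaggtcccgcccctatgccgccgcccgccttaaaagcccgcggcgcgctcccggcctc
Rgs19: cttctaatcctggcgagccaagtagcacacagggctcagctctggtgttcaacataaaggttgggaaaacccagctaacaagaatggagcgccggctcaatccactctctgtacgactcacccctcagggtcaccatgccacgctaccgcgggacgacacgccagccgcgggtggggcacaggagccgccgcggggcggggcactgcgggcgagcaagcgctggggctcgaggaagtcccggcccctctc
GATAA occurred at base -196 in the Rgs6 region, counted back from the start, and at no position in the Rgs10, Rgs2 and Rgs19 regions printed. Among the entries not printed it occurred in 1 of 2 for Rgs3, at -124, and in Rgs16, at -30, while the other 2 Rgs19 entries held none. Over all 32851 promoters of this length, 22.6% held it. The longer AGATAA, whose matches are also GATAA matches, was in the same Rgs3 entry, against 9.99% of promoters. TGTGGT, a core of RUNX factors, was in none of the 9 entries, against 14% of promoters. The regions differed in base composition: G and C made up 76.4% of the Rgs10 region, 72.4% of the Rgs2 region, 64.8% of the Rgs19 region and 59.2% of the Rgs6 region. A match is a match of letters and no more. Rgs2, Rgs1 and Rgs18 lie near each other on chromosome 1, with Rgs13 between Rgs2 and Rgs1 and Rgs21 between Rgs1 and Rgs18, and Rgs16 lies next to Rgs8.

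Rgs18 and Rgs10, the RGS genes of platelets, were higher in SS than in SI on both slides, and every SS array lay above every SI array of its slide. Levels are log2 processed signals minus the 75th percentile of the probes above background on all arrays, so a level is compared only within a probe. For Rgs18 the SS labelled male levels were 4.44, 4.14, 3.48 and 3.56, and the SI labelled male levels were 1.65, 3.12, 3.096 and 2.95. The SS labelled female levels were 3.35, 3.23, 3.50 and 3.22, and the SI labelled female levels were 1.38 and 0.98. The order of group means was SS labelled male (3.91 ± 0.46, SD, n = 4), SS labelled female (3.33 ± 0.13, n = 4), SI labelled male (2.70 ± 0.71, n = 4) and SI labelled female (1.18 ± 0.28, n = 2). Only the ranges of the 2 SS groups overlapped. The low SI labelled male level of 1.65 belonged to mouse 6, and the other 3 lay between 2.95 and 3.12.

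The difference between SS and SI for Rgs18 was 1.58 ± 0.28 (log2, SE), a fold of 2.99. Within labelled males it was 1.20 ± 0.33, or 1.34 without SI mouse 4, and within labelled females 2.14 ± 0.40. In the deposited log2 table the difference over all mice was 0.80, with the same direction, and it lay between 0.80 and 1.70 over all alternatives run.

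For Rgs10, a small RGS protein that consists of little more than the catalytic domain, the SS labelled male levels were 5.69, 5.36, 4.85 and 5.13. The SI labelled male levels were 3.01, 4.56, 4.29 and 4.32. In labelled females the SS levels were 5.09, 4.99, 5.19 and 4.99, against SI levels of 3.34 and 2.89. Mouse 6 was again the lowest SI labelled male. The group means were 5.26 ± 0.36 (SD, n = 4) and 4.05 ± 0.70 (n = 4) in SS and SI labelled males, and 5.06 ± 0.095 (n = 4) and 3.11 ± 0.32 (n = 2) in SS and SI labelled females. In the order of these means the 2 SS groups overlapped, and so did the 2 SI groups. The difference was 1.51 ± 0.25 (log2, SE), a fold of 2.84, with 1.21 ± 0.31 in labelled males, 1.38 there without SI labelled male 4, and 1.95 ± 0.38 in labelled females. It lay between 0.88, in the deposited log2 table, and 1.63.

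Rgs6, a member of the subfamily whose proteins pair with the G beta subunit encoded by Gnb5 and best known from brain and heart, was measured near background. Its brighter probe was above background on 3 of 4 SS and 1 of 4 SI labelled male arrays, and on 4 of 4 SS and 0 of 2 SI labelled female arrays, so it passed the filter mostly through SS arrays. The SS labelled male levels were -3.83, -4.49, -4.84 and -5.49, against -7.46, -6.91, -5.15 and -6.22 in SI labelled males. The SS labelled female levels were -4.48, -3.41, -3.93 and -4.34, against -6.46 and -7.08 in SI labelled females. The groups did not overlap in labelled females, while in labelled males the lowest SS array (mouse 01b) lay below the highest SI array (mouse 7). The size of the difference rests on SI signals of which 1 of 6 was above background, so no fold is given. On the processed signals the fitted difference over all mice was 2.16 ± 0.38 (log2, SE), made up of 1.77 ± 0.47 for labelled males and 2.73 ± 0.58 for labelled females. With normexp background correction the value for labelled males was 0.64, that for labelled females 0.17 and that over all mice 0.45, so little of the labelled female difference was left. The planned use of the deposited log2 table, with 2 values in every group, left Rgs6 out. A run from 1 value in every group, added after seeing the data, gave 1.07 for labelled males, 2.38 for labelled females and 1.49 over all mice. The probe had 2 blank cells in that table, which left 1 value in SI labelled females, so the 2.38 rests on 1 SI array. The other Rgs6 probe was above background on 0 of 14 arrays and gives no comparison.

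**Figure D1:**
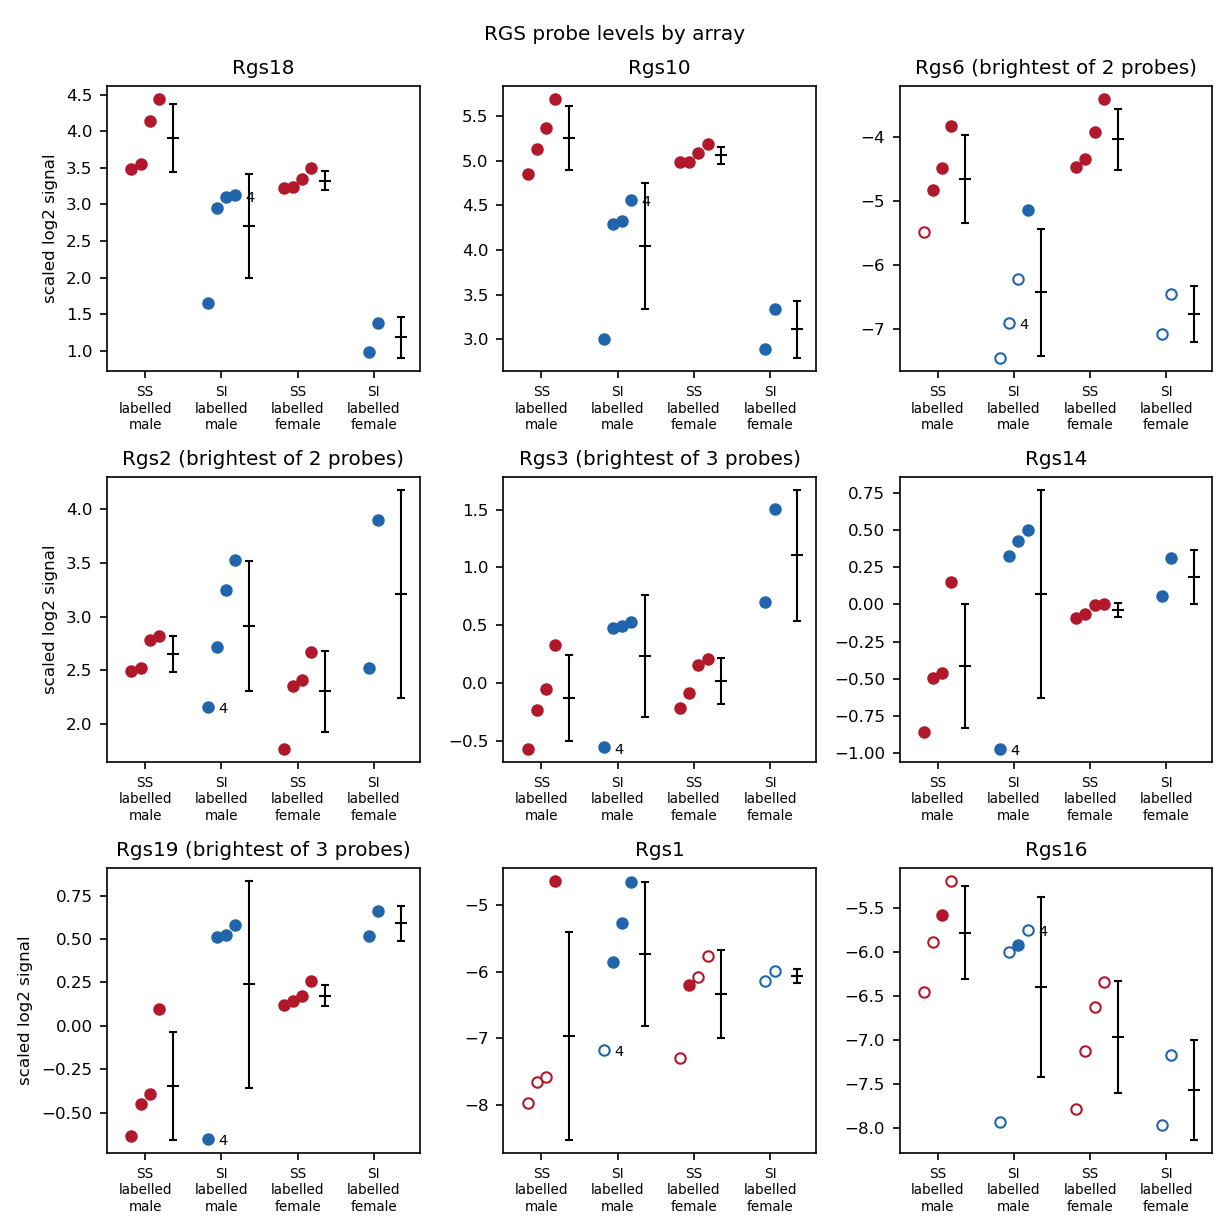
Level of the brightest probe of each RGS gene on every array (vertical axis, scaled log2 signal) by group (horizontal axis; SS red, SI blue). Filled points are well above background and open points are not, the bars give mean and SD, and 4 marks SI labelled male 4; Rgs18 and Rgs10 lie higher in every SS array than in every SI array of the slide, and Rgs1 and Rgs16 are mostly open points.

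The other members did not share this pattern. Rgs19 encodes a protein (also known as GAIP) that acts on the Gi class of G alpha subunits. Its brightest probe had SS labelled male levels of -0.45, -0.63, 0.097 and -0.39 and SI labelled male levels of 0.52, -0.65, 0.58 and 0.51, the -0.65 being mouse 4. The SS labelled female levels were 0.26, 0.17, 0.14 and 0.12, all below the SI levels of 0.66 and 0.52. The groups overlapped in labelled males through SI mouse 4 alone, since the remaining 3 SI levels lay above all SS levels. The difference was -0.52 ± 0.20 (log2, SE), with -0.58 in labelled males, -0.88 there without SI mouse 4, and -0.42 in labelled females. The second probe gave -0.52 ± 0.17 and the dimmest -0.45 ± 0.21, so the 3 probes had 1 direction, although in the deposited log2 table they had -0.32, -0.34 and -1.29.

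Rgs14 encodes a scaffold with an RGS domain and a second motif that binds inactive Gi alpha subunits. It had SS labelled male levels of -0.49, -0.86, 0.15 and -0.46 and SI labelled male levels of 0.50, -0.97, 0.33 and 0.43, where mouse 4 was again the low one. In labelled females the SS levels were 0.0036, -0.0026, -0.090 and -0.061, below both SI levels of 0.31 and 0.055. The difference was -0.38 ± 0.24 (log2, SE), -0.49 in labelled males and -0.83 there without SI mouse 4. In labelled females it was -0.22. In the deposited log2 table the difference over all mice was -0.18.

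Rgs2, which acts chiefly on Gq alpha subunits, had on its brighter probe SS labelled male levels of 2.52, 2.49, 2.82 and 2.78 and SI labelled male levels of 3.25, 2.16, 2.72 and 3.53. The SS labelled female levels were 2.67, 2.36, 1.77 and 2.41, against 3.89 and 2.53 in SI. The groups overlapped on both slides, and the 2 SI labelled females were farther apart than the 4 SS labelled females. The difference was -0.52 ± 0.27 (log2, SE), -0.26 in labelled males and -0.91 in labelled females. Without SI labelled male 4 the value in labelled males was -0.51, and without SI labelled female 27 that in labelled females was -0.22. The dimmer probe, above background on 9 of 14 arrays, gave -0.19 ± 0.27 and 0.12 in the deposited log2 table.

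Rgs3, which occurs in long and short forms and acts on Gi and Gq alpha subunits, was measured by 3 probes. The brightest had SS labelled male levels of -0.050, -0.57, 0.33 and -0.23 and SI labelled male levels of 0.47, -0.56, 0.52 and 0.50. Its SS labelled female levels were -0.085, 0.16, -0.22 and 0.21, all below the SI levels of 1.504 and 0.70. The difference was -0.65 ± 0.24 (log2, SE), -0.37 in labelled males (-0.63 without SI mouse 4) and -1.09 in labelled females. The second probe gave -0.23 ± 0.21, with 0.025 in labelled males (0.25 without SI mouse 4) and -0.62 in labelled females. The dimmest, whose identifier is of another transcript of the gene, gave -0.60 ± 0.35, with -0.87 in labelled males (-1.35 without SI mouse 4) and -0.21 in labelled females. Over all mice the brightest probe had -0.40 in the deposited log2 table and the dimmest -0.25 with normexp background correction. The brightest and the dimmest probes had their larger SS minus SI difference on different slides. Whether that SS minus SI difference changed between slides was not tested for them.

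Rgs1, a regulator of lymphocyte migration, was above background in labelled males on 1 of 4 SS and 3 of 4 SI arrays, and in labelled females on 1 of 4 SS and 0 of 2 SI arrays. Its SS labelled male levels were -7.97, -7.65, -4.64 and -7.58, where the -4.64 of mouse 3 is the only one above background. The SI labelled male levels were -5.27, -7.17, -4.65 and -5.85, where the -7.17 of mouse 4 is the only one not above background. The difference for Rgs1 was -1.23 in labelled males, -1.70 there without SI mouse 4, and -0.27 in labelled females. Rgs16, which is induced in activated lymphocytes, was above background on 1 of 4 SS and 1 of 4 SI labelled male arrays and on no labelled female array, with all levels between -7.97 and -5.19. Neither gene passed the filter, so no difference between groups was tested for them, and at such levels its size is uncertain.

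Over the whole array 1782 of 24045 tested probes were higher in SS (7.41%) and 137 were lower (0.57%) in all mice with limma at an adjusted p of 0.05. Among the 12 tested RGS probes 3 were called higher (Rgs6, Rgs10 and Rgs18) and 0 lower, and since the genes were chosen on this contrast nothing is read from that count. In labelled males alone 0 probes were called (0%), with 5717 at an unadjusted p under 0.05, and 0 of the 12 RGS probes. In labelled females 963 probes were called (4%), and 3 of the 12 RGS probes were among them, all higher in SS. The choice of genes bears on these counts within slides too, so nothing is read from them, and Rgs6 passed the filter mostly through SS arrays. Without SI labelled male 4 the array-wide count was 9439 in labelled males and 3857 in all mice.

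The same holds for the overlap of groups. Every SS array lay above every SI array on both slides for 5.12% of tested probes and for 2 RGS probes, and below on both for 0.482% and for 0 RGS probes. In labelled males alone SS lay above for 8.41% (2 RGS probes) and below for 1.17% (0 RGS probes). In labelled females alone it lay above for 16.6% (3 RGS probes) and below for 18.1% (6 RGS probes, of Rgs3, Rgs14 and Rgs19).

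**Figure D2:**
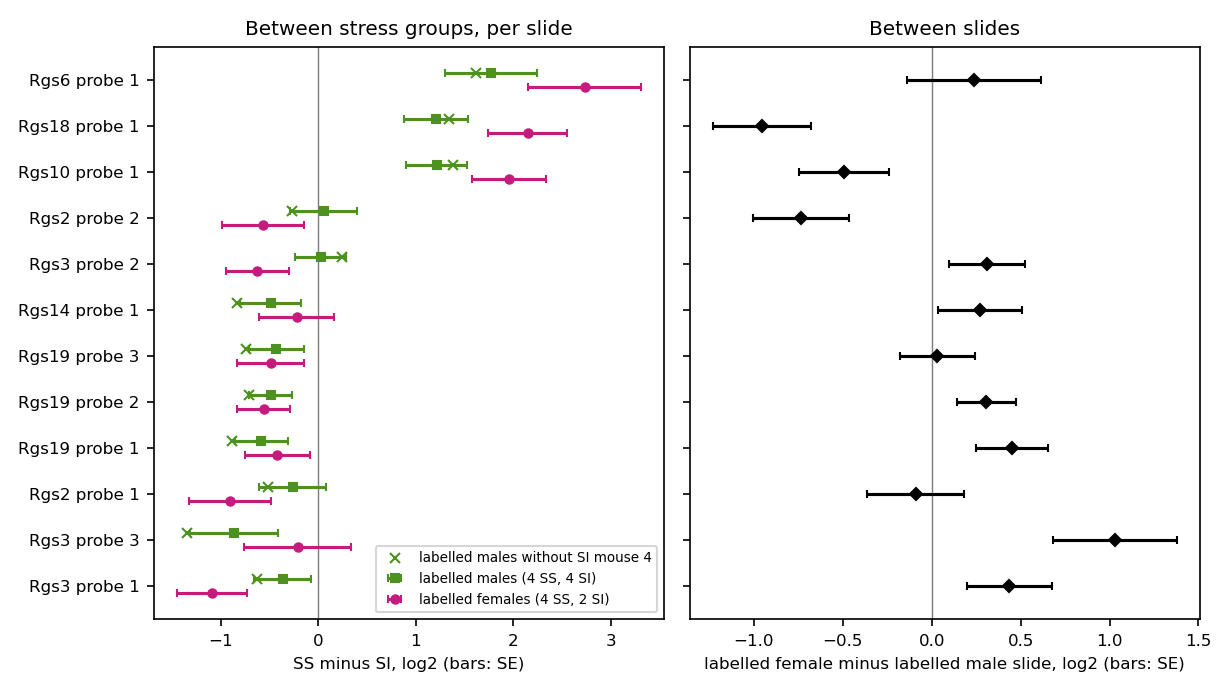
Log2 differences for the 12 RGS probes that passed the filter, with SE bars: SS minus SI on each slide (left; squares labelled males, circles labelled females, crosses labelled males without SI mouse 4) and labelled female minus labelled male slide (right). The probes of Rgs6, Rgs18 and Rgs10 lie right of 0 on both slides at left, and Rgs18 lies left of 0 at right.

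Between the slides, a contrast that the choice of genes did not use, 3 of the 12 RGS probes passed, against 38% of all tested probes. Rgs18 was lower on the slide of the labelled females by a log2 difference of -0.96 ± 0.28 (SE, limma adjusted p = 0.0132), a fold of 1.94. The dimmer Rgs2 probe was lower too (-0.73 ± 0.27, limma adjusted p = 0.0437), and the dimmest Rgs3 probe was higher (1.03 ± 0.35, limma adjusted p = 0.0304). The other 9 did not pass, with differences from -0.49 for Rgs10 (± 0.25, limma adjusted p = 0.144) to 0.45 for the brightest Rgs19 probe (± 0.20, limma adjusted p = 0.0978). The brighter Rgs2 probe had -0.091 ± 0.27, so the 2 probes of this gene differed in size.

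The scaling bears on this contrast. The median difference between slides over all tested probes was -0.071 with the scaling used and 0.34 when the percentile was taken over all probes. With that percentile Rgs18 had -0.55 (limma adjusted p = 0.153), and Rgs18 passed in every other alternative run. Other probes gained a call with that percentile. They were the brightest and second Rgs3 probes (0.85 and 0.72, limma adjusted p = 0.0249 and 0.00717) and the brightest and second Rgs19 probes (0.86 and 0.72, 0.0179 and 0.0197). Rgs10 passed without SI labelled male 6 (-0.60, limma adjusted p = 0.0398). The dimmer Rgs2 probe lost the call with every other normalization, in both runs of the deposited log2 table, without a filter and without most single arrays. Among the alternatives that included it, it kept the call only without SI labelled male 4, SI labelled male 7 or SI labelled female 27. The dimmest Rgs3 probe lost the call in the deposited log2 table, without a filter and without any of several single arrays. Of the 9147 probes called between slides 2758 were higher and 6389 lower on the slide of the labelled females, and with the percentile over all probes 6748 of 11717 were higher. With quantile normalization 5060 of 10107 were.

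The members fell into 2 sets in how they varied within groups. Deviations of each array from its group mean were correlated between the brightest probes of the 7 genes over 14 arrays, in groups of 4, 4, 4 and 2 that share arrays and scaling. Rgs10 and Rgs18 had r = 0.98, also without SI labelled male 4, and Rgs6 had 0.58 with Rgs10 and 0.69 with Rgs18, or 0.77 and 0.83 without that array. Rgs14 and Rgs19 had 0.99, Rgs3 had 0.89 with Rgs14 and 0.86 with Rgs19, and Rgs2 had 0.75 with Rgs3 and 0.60 with Rgs19. Without that array Rgs14 and Rgs19 had 0.95, and Rgs2 had 0.62 with Rgs3 and 0.31 with Rgs19. Between the sets the values were low or negative, as for Rgs10 and Rgs14 at -0.53, which was -0.37 without SI labelled male 4. That array was the lowest SI labelled male for Rgs2, Rgs3, Rgs14 and Rgs19 and the highest for Rgs10 and Rgs18. It was the dimmest of its group before scaling (brightness -0.81, against 0.64 to 1.06). SS labelled male 3, the brightest of its group (0.62, against -0.16 to 0.074), was the highest there for Rgs2, Rgs3, Rgs14 and Rgs19. It was the lowest there for Rgs10 and Rgs18. The part of array brightness in these sets was not tested.

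**Figure D3:**
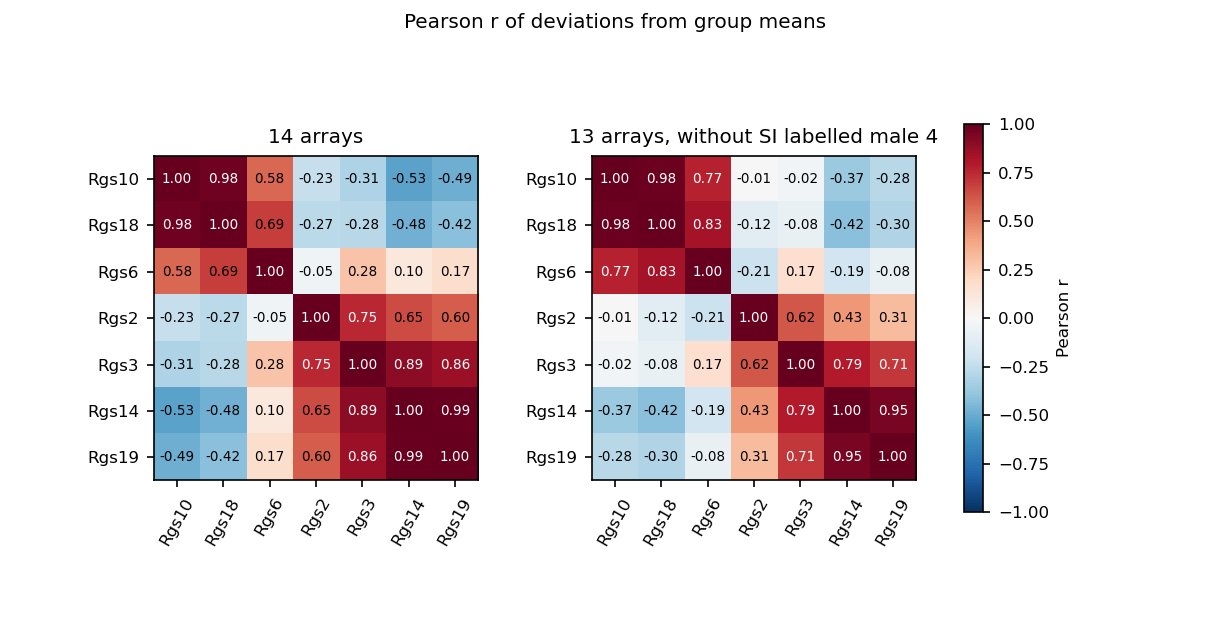
Pearson r (colour, from -1 to 1) between deviations from group means of the brightest tested probe of 7 RGS genes, over 14 arrays at left and over 13 arrays without SI labelled male 4 at right. Rgs10 and Rgs18 have 0.98 in both panels, and Rgs2, Rgs3, Rgs14 and Rgs19 form the other block, with lower values at right.

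Over all named genes, those most like Rgs10 in these deviations were Sytl4, Alox12 and Derl1 (r = 0.99 each), and those most like Rgs18 were Treml2, Ptpn11 and Cpe (0.99 each). For Rgs6 they were Nyx (0.90), Iqcc (0.88) and Med21 (0.88). For Rgs14 they were Fam160a2 (0.996), Sh2d3c (0.99) and Cr1l (0.99), and for Rgs19 Smu1, Copb1 and Sbds (0.99 each). For Rgs3 they were Macir (0.98), Il1f9 (0.97) and Bcl6 (0.96), and for Rgs2 Sat1 (0.98), Igsf6 (0.97) and Gm5150 (0.97). High values were common on 14 arrays: the gene ranked 100 still had 0.96 with Rgs10, 0.95 with Rgs18 and 0.74 with Rgs6. The 100 genes most like Rgs10 held 5 of the 18 platelet markers, those most like Rgs18 held 2 and those most like Rgs6 held 0, and without SI labelled male 4 these counts were 7, 6 and 2.

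Platelet markers moved with Rgs10, Rgs18 and Rgs6 between SS and SI. Of 18 platelet markers 17 rose in SS in all mice by limma, all but Selp, with a median log2 difference of 1.55 over the 18, and in labelled females 12 rose. In labelled males 0 of the 18 passed by limma, with a median of 1.37, and 18 were higher at an unadjusted p under 0.05. Their summed level was 9.02 to 9.83 in SS and 6.99 to 8.996 in SI labelled males, and 9.12 to 9.42 in SS and 7.31 to 7.66 in SI labelled females. SI mouse 6, the lowest SI labelled male for Rgs18 and Rgs10, had the 6.99. The part of platelet RNA in the differences of the 3 RGS genes was not tested. Beside the lower values of Rgs2, Rgs3, Rgs14 and Rgs19 in SS labelled females, 7 of 12 neutrophil markers fell there (median -2.18), with a summed level of 7.27 to 7.59 in SS and 8.93 to 9.53 in SI, and its part was not tested either. In labelled males the neutrophil median was 0.29. In all mice 0 of 12 neutrophil, 0 of 11 T cell, 0 of 10 B cell, 0 of 8 NK cell and 0 of 6 erythroid markers passed by limma (2, 1, 0, 0 and 0 at an unadjusted p under 0.05), and 1 of 9 monocyte markers rose, F13a1, which platelets also hold.

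The genes around the RGS proteins were counted in 8 lists with 122 genes, of which 86 were tested. These lists, like those of markers, were chosen with earlier results of these data known. Their counts and shares are therefore a description and no test of the lists. In SS 15 rose and 1 fell (17.4% and 1.16%), against 8.61% and 0.947% of all 11507 named genes, while the median log2 difference was -0.19 against -0.14. Among receptors of platelets 5 of 7 rose: F2rl2 (1.75 ± 0.35, SE), a cofactor in thrombin sensing, the ADP receptors P2ry12 (1.68 ± 0.29) and P2ry1 (1.58 ± 0.30), the thrombin receptor F2r (0.96 ± 0.17) and the prostacyclin receptor Ptgir (0.95 ± 0.20), with limma adjusted p between 0.00471 and 0.00849. The other 2 tested did not pass, the adenosine receptor Adora2a (-0.47 ± 0.24, limma adjusted p = 0.285) and the thromboxane receptor Tbxa2r (-0.33 ± 0.35, limma adjusted p = 0.618). F2rl2 is also one of the platelet markers. F2rl3, Adra2a and Ptger3 of the same list did not pass the filter and were not tested. Which cells held F2r or the other transcripts of this list was not tested. Among receptors of leukocytes 0 of 20 rose and 1 fell, Cxcr1, a chemokine receptor of neutrophils (-1.74 ± 0.47, limma adjusted p = 0.0334), with a median of -0.50 over the list. At an unadjusted p under 0.05, 9 of the 20 were lower and 0 higher. Without SI labelled male 4, the counts over the 8 lists were 19 higher and 19 lower.

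Of the G alpha subunits 3 of 9 rose, namely Gnaz (1.58 ± 0.31, SE, limma adjusted p = 0.00610), a slowly hydrolysing subunit of the Gi class on which RGS proteins act, Gnas (0.99 ± 0.25, limma adjusted p = 0.0252), which stimulates adenylyl cyclase, and Gnaq (0.82 ± 0.19, limma adjusted p = 0.0150), which acts on phospholipase C beta. Of the G beta and gamma subunits 2 of 9 rose, Gng11 (1.08 ± 0.23, limma adjusted p = 0.00801) and Gng5 (0.62 ± 0.17, limma adjusted p = 0.0424). Of the effectors 3 of 14 rose, the adenylyl cyclase Adcy9 (1.34 ± 0.23), the Rap1 exchange factor Rasgrp2 (1.24 ± 0.23) and the kinase subunit Pik3cb (0.77 ± 0.17), with limma adjusted p of 0.00471, 0.00503 and 0.0102. The receptor kinase Grk5 (1.29 ± 0.24) was the 1 of 10 receptor kinases and arrestins that rose, and Arhgef12, whose protein has an RGS-like domain (1.37 ± 0.25), the 1 of 12 RGS partners and related GAPs (limma adjusted p = 0.00486 for both). Gnb5, the partner of Rgs6 and named here for that reason, had 0.80 ± 0.36 (limma adjusted p = 0.229). The calls of Gng5, Gnas, Gnaq, Gng11, Arhgef12, Pik3cb, F2r and Cxcr1 were lost in 1 or more alternatives, and Gnaz, Rasgrp2, Adcy9, Grk5, Ptgir, P2ry1, P2ry12 and F2rl2 passed in all 21 run.

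**Figure D4:**
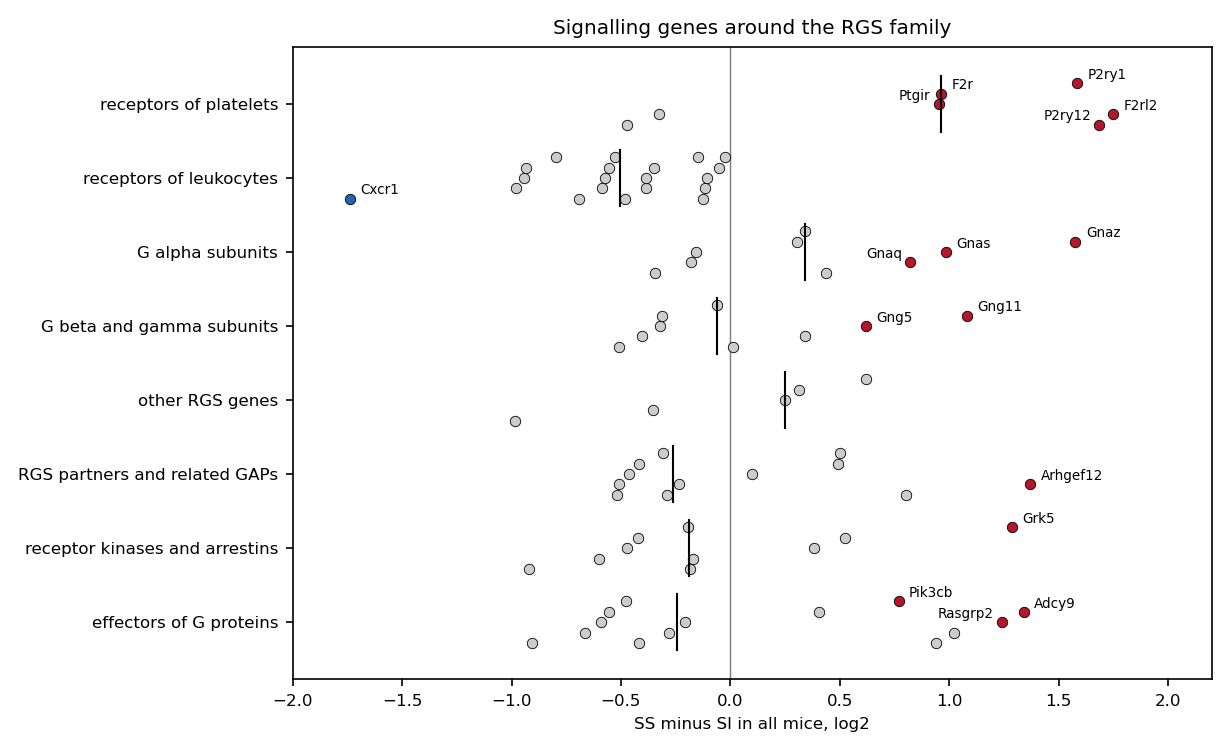
SS minus SI in all mice (horizontal axis, log2) for the tested genes of 8 lists around G protein signalling (rows); each point is a gene, red if it rose, blue if it fell and grey if it did not pass, and the vertical tick is the median of the list. Receptors of platelets lie to the right, with a median of 0.96, except Adora2a and Tbxa2r left of 0, and all tested receptors of leukocytes lie left of 0.

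None of the 5 tested among 13 other RGS genes passed between SS and SI: the differences were -0.99 for Rgs7, -0.35 for Rgs11, 0.25 for Rgs20, 0.31 for Rgs12 and 0.62 for Rgs17, with limma adjusted p of 0.420 or more. At an unadjusted p under 0.05 the count was also 0 of 5. Between the slides Rgs20 was lower on that of the labelled females (-1.93 ± 0.30, SE, limma adjusted p = 1.13e-04). Rgs17 was above background on all 8 labelled male arrays and on 0 of 6 labelled female arrays, and it passed as well (limma adjusted p = 5.35e-07), except with normexp background correction (0.0635).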

How the data were processed

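RNA of red cell-lysed blood was hybridised to 14 one-colour (Cy3) Agilent mouse arrays, 1 per mouse by the labels, from which the groups were also taken. The deposited scanner files hold processed signals, median signals and background as fluorescence intensity, per the file headers, with background subtracted by Feature Extraction 10.7.3.1; the submitters' processing notes name version 9.1. The other deposited columns used are flags, per the file headers. The authors also deposited log2 values, normalized in a way the sources used here do not state (27990 probes; column medians 7.21 to 7.74; highest value 17.7407 in every column; 14 of the 15 RGS probes).

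Of 62976 spots per array 3671 control spots were left out, outlier spots were left out where a probe had others, and no spot was saturated. Spots of a probe were averaged on the log2 scale and each array had its 75th percentile over the 14526 probes above background everywhere subtracted. limma 3.58.1 in R 4.3.3 tested 24045 probes with a signal well above background on 6 or more of the 14 arrays, with slide as a term for all mice, in a fit with 4 groups within slides, two-sided, with Benjamini-Hochberg adjustment over these probes at 0.05. A gene is its tested probe with the highest mean. Files were read with the data.table package (version 1.17.8). Probe identifiers were matched to symbols through the RefSeq names supplied (26425 probes). Positions of probes are left out because the array was designed on another build.

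The RGS genes and all lists were chosen with earlier results of these data known. Genes named are the 9 members, the genes of each list that passed (at most 6 in each direction) and the 3 genes most like each tested member. Nothing states that samples come from separate litters or cages, so p-values measure the spread between these mice. The number of arrays limits the precision. Alternatives were the percentile over all probes, quantile normalization, normexp (offset 50), the deposited log2 table, no filter, a filter on all arrays and leaving out each array; the code was tested on simulated data.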

Additional observations from a re-analysis of the deposited data

Results flagged for a closer look

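A single array lay far from the other 3 of its group, by Dixon's gap over range above 0.829, in 11 cases among 45 groups of 4 arrays and RGS probes. Chance gives about 1 such case in 20 groups, and the probes of a gene share their arrays. SI labelled male 4 was the lowest of its group for the brightest Rgs3 probe (-0.56), Rgs14 (-0.97), the brightest Rgs19 probe (-0.65) and the dimmest Rgs19 probe (-2.15). SI labelled male 6 was the lowest for Rgs18 (1.65), and SI labelled male 7 the lowest for Rgs16 (-7.93, below background).

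SS labelled male 3 was the highest of its group for Rgs1 (-4.64), where it was the only array of the group above background, and for the dimmest Rgs19 probe (-1.21), and the lowest for the second Rgs3 probe (-2.50). SS labelled female 22 was the highest for the dimmest Rgs19 probe (-1.35) and the lowest for the dimmer Rgs6 probe (-8.56, below background). The arrays flagged for more than 1 probe were also at the edge of their groups in brightness before scaling. SI labelled male 4 had -0.81, against 0.64 to 1.06 in the rest of its group. SS labelled male 3 had 0.62, against -0.16 to 0.074, and SS labelled female 22 had 0.49, against -0.35 to -0.24. The part of array brightness in these cases was not tested.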

How the results depend on the processing

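The differences between SS and SI over all mice kept their sign in all alternatives run for Rgs6, Rgs10, Rgs18, Rgs14, Rgs19, Rgs3 and the brighter Rgs2 probe, while the dimmer Rgs2 probe turned to 0.12 in the deposited log2 table. The deposited table was used for probes with at least 2 values in every group; Rgs6 had too few, so a run from 1 value in every group was added after seeing the data.

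In all mice 1919 probes were called, and the count was 1244 with normexp, 1127 without a filter and 1491 to 3857 without 1 array (highest without SI labelled male 4). In labelled males it was 0, and 2 with the percentile over all probes, 2 with quantile normalization, 170 in the deposited table, 173 there from 1 value a group, and 0 to 9439 without 1 array (9439 without SI labelled male 4). In labelled females it was 963, and 414 with normexp, 451 and 461 in the 2 runs of the deposited table, 52 without a filter, and 43 (without SS labelled female 23) to 1920 (without SI labelled male 4) without 1 array. Between slides it was 9147, and 3625 with normexp, 5866 in the deposited table and 3915 with the filter on all arrays. Signalling genes higher in SS numbered 15, and 12 to 19 without 1 array. Those lower in SS numbered 1, and 3 with normexp, 0 in both runs of the deposited table, 0 without a filter, 2 with the filter on all arrays, and 0 to 19 without 1 array (19 without SI labelled male 4).

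Several differences between slides changed sign, of which only that of the dimmer Rgs2 probe was called. The brighter Rgs2 probe had 0.32 with the percentile over all probes and -0.36 to 0.033 without 1 array. The dimmer Rgs2 probe had 0.033 with normexp. In both runs of the deposited table the second Rgs3 probe had -0.023, Rgs14 -0.016, the second Rgs19 probe -0.032 and the dimmest Rgs19 probe -1.04. The dimmest Rgs19 probe had -0.086 to 0.12 without 1 array. The causes were not tested. No paired analysis was possible because the groups share no mouse numbers.

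Signals near background limit Rgs1, Rgs6, Rgs16, the dimmer Rgs2 probe and the dimmest Rgs3 probe, and 2 SI labelled females limit that slide.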
